A study of Mus musculus with 35 samples.

Results

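The genes that display peptides on MHC class I molecules were followed through the hippocampus of mice with and without tau disease, across cell types, genotypes and ages. The 9 genes, of 32285 measured, were chosen by name, but with earlier results of these data known: H2-D1, H2-K1, B2m, Tap1, Tap2, Tapbp, Psmb8, Psmb9 and Nlrc5. All mice were C57BL/6. Nuclei of frozen hippocampus were sequenced at 9 months in 14 droplet libraries (10x Genomics), from 3 WT, 3 PS19, 4 CLEAR and 4 CLEAR_PS19 samples. Each of these groups held 1 female, and its other samples were male. Whole hippocampus was sequenced in 21 bulk RNA libraries of WT and PS19 mice, 6 and 6 at 4 months and 5 WT and 4 PS19 at 9 months. The labels give no sex for the bulk samples, and replicate 2 of PS19 at 9 months was not used here. In PS19 mice a mutant form of human tau is expressed from a transgene under the Prnp (prion protein) promoter, a promoter that is also active outside neurons. In CLEAR mice the CLEAR element, where the transcription factor TFEB binds, is mutated in Atp6v1h, a gene for a subunit of the lysosomal proton pump. CLEAR_PS19 mice carry both changes and WT mice neither. The labels do not say that the samples of a group came from separate animals, so p-values measure only the spread between these samples.

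A class I molecule is a heavy chain bound to β2-microglobulin and to a short peptide, shown on the cell surface to cytotoxic T cells. The peptides are cut in the cytosol by the proteasome, whose catalytic subunits are exchanged for Psmb8 and Psmb9 in the immunoproteasome, and are pumped into the endoplasmic reticulum by the transporter of Tap1 and Tap2, where tapasin (Tapbp) holds the transporter to the waiting heavy chain. Interferons induce most of these genes, and the regulator Nlrc5 acts at their promoters. In the healthy brain class I is highest on endothelium and microglia and low on most neurons.

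The heavy chain genes and the peptide loading genes lie in the MHC region of chromosome 17 (GRCm38, GENCODE M21): H2-K1 at chr17:33996017-34000347, Tapbp at chr17:33915899-33929292, Psmb9 at chr17:34181987-34187764, Tap1 at chr17:34187553-34197225, Psmb8 at chr17:34197721-34201454, Tap2 at chr17:34203527-34216321 and H2-D1 at chr17:35262730-35267499. B2m lies at chr2:122147686-122153083 and Nlrc5 at chr8:94434356-94527272. Exons of Psmb9 and Tap1 overlap head to head, so reads of either gene near their starts may be counted for the other, and reads shared by near-identical heavy chain genes may be assigned to the wrong member. The values of these genes are uncertain to that extent.

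The promoters are shown because the members moved together in the bulk samples described below. RefSeq windows (GRCm38.p6) were at hand for 7 of the 9 members, all but Tap2 and Nlrc5. The 250 bases before the start are printed for H2-D1 (chr17:35262844-35263093, plus strand), H2-K1 (chr17:34000348-34000597, minus strand) and B2m (chr2:122147437-122147686, plus strand), and for Psmb9 and Tap1 the 225 bases between their 2 starts (chr17:34187331-34187555, plus strand). Capitals mark matches, on either strand, to any of 5 motifs: GAAA and GAAA with any 2 bases between them (the core of an interferon-stimulated response element), TTC and GAA with any 3 bases between them (a STAT element), GGGGA and CCC with any 2 bases between them (an NF-kB element), TGACG (as in the X2 box) and CCAAT (the Y box).
H2-D1: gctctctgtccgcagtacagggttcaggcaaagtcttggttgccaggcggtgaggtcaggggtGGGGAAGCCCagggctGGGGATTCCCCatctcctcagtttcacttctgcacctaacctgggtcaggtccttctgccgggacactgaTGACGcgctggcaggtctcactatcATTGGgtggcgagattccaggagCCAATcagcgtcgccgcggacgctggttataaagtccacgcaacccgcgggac
H2-K1: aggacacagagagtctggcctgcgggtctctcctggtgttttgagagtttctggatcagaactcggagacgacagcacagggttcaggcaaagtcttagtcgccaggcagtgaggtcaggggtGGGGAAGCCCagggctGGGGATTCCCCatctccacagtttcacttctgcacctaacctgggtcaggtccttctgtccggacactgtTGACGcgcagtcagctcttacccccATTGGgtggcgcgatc
B2m: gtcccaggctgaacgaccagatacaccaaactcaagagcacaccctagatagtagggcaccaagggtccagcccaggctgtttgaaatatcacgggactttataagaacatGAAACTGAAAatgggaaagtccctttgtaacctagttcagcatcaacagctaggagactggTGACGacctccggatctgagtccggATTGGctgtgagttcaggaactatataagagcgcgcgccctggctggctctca
Psmb9-Tap1: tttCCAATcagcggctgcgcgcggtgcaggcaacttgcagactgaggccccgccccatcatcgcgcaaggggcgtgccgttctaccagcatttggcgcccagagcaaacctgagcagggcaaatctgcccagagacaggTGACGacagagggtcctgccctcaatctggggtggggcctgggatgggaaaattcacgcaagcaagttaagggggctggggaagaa

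In H2-D1, H2-K1 and B2m the letters TGACG were followed, after 20 bases, by ATTGG, which is CCAAT on the other strand. This spacing was noticed in the sequences and is a description: 30 of 32851 RefSeq windows held it (0.0913%), the class I gene H2-M3 among them. Of the 7 members with a window, 5 held TGACG and 6 held CCAAT, against 17.8% and 33.8% of all windows. The windows of Psmb9 and Tap1 overlap, so that 1 TGACG and 1 CCAAT are counted for both, and H2-K1 has 2 overlapping windows. The NF-kB letters were found in H2-D1 and H2-K1, where 2 of its 3 matches overlap, and in 1.41% of all windows. The interferon response letters were found in B2m alone and in 2.98% of all windows, and the STAT letters in Psmb8 alone and in 7.02%. A match is only a match of letters, and a missing one says only that the letters are not in this window.

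Bulk libraries held 9.63 to 17.2 M counts and nuclei libraries 39.9 to 83.6 M UMIs (unique molecular identifiers, 1 per captured RNA). Expression fitted the labels: Prnp, whose promoter drives the transgene, was at 10.93 to 11.16 log2 CPM (CPM are counts relative to the scaled total of the library) in PS19 bulk libraries against 9.73 to 9.94 in WT, and Atp6v1h in nuclei was at 52.5 to 64.0 CPM of the named nuclei in the groups with the CLEAR mutation against 94.5 to 120.2 in the others. Of 144991 deposited nuclei 132322 were kept, 12041 of them in clusters left unnamed. Pairs of libraries shared 6 to 56 cell barcodes. The nuclei libraries of PS19 replicates 1 and 2 and CLEAR_PS19 replicate 3 stood apart from the other 11. They held 11.2% to 17.1% of their nuclei in 1 oligodendrocyte cluster (number 5, high in the complement gene C4b) against 0.11% to 1.21% in the others, and 8.37% to 14.9% in 1 microglial cluster (number 18) against 0.0976% to 3.99%. They also held 84 of the 107 T cell nuclei, 17 to 46 each, against 0 to 8 in each of the others. By the correlation of their granule neuron sums the 14 libraries were also divided into 3 sets, a number fixed beforehand. The labels give sex, which marks set 2, but not what divides the males. Set 1 held replicates 1 and 2 of WT and PS19 and replicate 3 of CLEAR and CLEAR_PS19, set 2 the female of each group, and set 3 CLEAR replicates 1 and 2 and CLEAR_PS19 replicates 1 and 2, with no WT or PS19 library.

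At 9 months the whole hippocampus of PS19 mice held more RNA of every class I member than that of WT mice, and no PS19 library overlapped a WT library for any of the 9, as for 8.01% of genes in this direction. In edgeR's quasi-likelihood test with Benjamini-Hochberg adjustment over 16133 genes, all 9 members were called higher (adjusted p under 0.05), where 7.68% of all genes tested were called higher. In bulk tissue more cells of a type and more RNA per cell cannot be told apart.

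**Figure D1:**
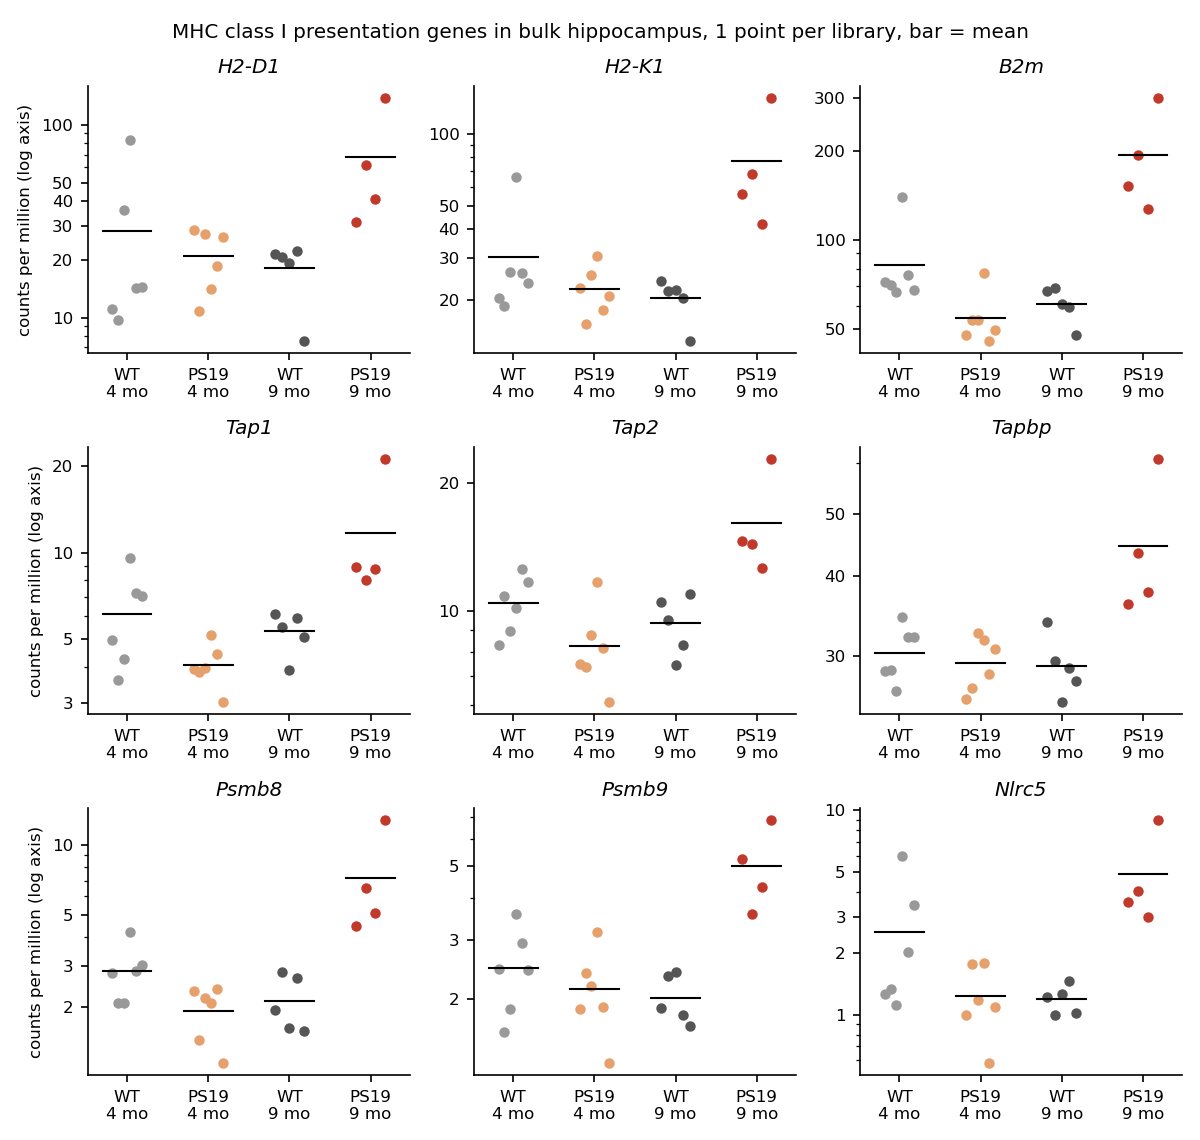
Level in CPM (log axis) of the 9 members in each bulk library, by genotype and age, with the mean of each group as a bar. The PS19 libraries at 9 months lie above every WT library of that age in all 9 panels, and replicate 5 of that group is the highest in each.

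The heavy chains form the groove that holds the peptide. H2-D1 was at 21.3, 20.5, 19.2, 22.1 and 7.57 CPM in the 5 WT libraries at 9 months and at 31.5, 61.4, 41.0 and 137 CPM in the 4 PS19 libraries. The groups did not overlap, and replicate 5 of PS19 was far above the other 3. The difference was 1.91 on the log2 scale (SE 0.527, edgeR adjusted p = 0.0185), or 3.76-fold. Without PS19 replicate 5 it was 1.31 with an edgeR adjusted p of 0.148, so the call rests on that library. With the replicate number as a block it was 1.75 with an edgeR adjusted p of 0.0631. H2-K1 was at 24.1, 21.8, 22, 20.5 and 13.5 CPM in WT and at 56.2, 67.9, 41.7 and 142 CPM in PS19. Its lowest PS19 library stood above its highest WT library, and the difference was 1.92 (SE 0.333, edgeR adjusted p = 0.000349).

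B2m encodes β2-microglobulin, the light chain shared by all class I molecules. It was at 67.3, 68.9, 60.6, 59.3 and 47.6 CPM in WT at 9 months and at 152, 193, 127 and 301 CPM in PS19. Every PS19 library was well above every WT library, a difference of 1.67 (SE 0.224, edgeR adjusted p = 1.54e-05), or 3.19-fold. Per kilobase of exon B2m was the most abundant member in PS19 at 9 months, at 225 CPM per kb, followed by H2-D1 at 26.3 and H2-K1 at 26.2, Tapbp at 12.3, Tap2 at 4.25, Tap1 at 2.14, Psmb8 at 2.13, Psmb9 at 1.36 and Nlrc5 at 0.577. Without replicate 5 H2-D1 was at 17.3 CPM per kb, below H2-K1 at 18.8, and Tap1 at 1.56, below Psmb8 at 1.59.

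The peptide transport genes had the smallest differences among the 9. Tap1 was at 6.13, 5.50, 3.91, 5.94 and 5.09 CPM in WT and at 8.91, 8, 8.78 and 21.2 CPM in PS19. The PS19 replicates 1, 3 and 4 lay close together just above the WT range and replicate 5 lay far above them. The difference was 1.15 (SE 0.272, edgeR adjusted p = 0.00641), and 0.69 with an edgeR adjusted p of 0.0767 without replicate 5. Tap2, the other subunit of the transporter, was at 7.46 to 10.9 CPM in WT and 12.6 to 22.7 CPM in PS19 (difference 0.78, edgeR adjusted p = 0.00437). Tapbp was at 25.4 to 33.8 CPM in WT and at 36.1 to 60.8 CPM in PS19 (difference 0.62, edgeR adjusted p = 0.00126).

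The immunoproteasome subunits and the regulator were rare transcripts. Psmb8 was at 1.95, 2.83, 1.62, 2.68 and 1.59 CPM in WT and at 4.50, 6.52, 5.08 and 12.8 CPM in PS19 (difference 1.77 with SE 0.287, edgeR adjusted p = 0.00016). Psmb9 was at 1.87, 2.33, 2.41, 1.79 and 1.65 CPM in WT and at 5.24, 3.57, 4.30 and 6.84 CPM in PS19 (difference 1.31 with SE 0.244, edgeR adjusted p = 0.000756). Both subunits were separated between the genotypes in every library. Nlrc5 was at 1.23, 1.00, 1.26, 1.46 and 1.02 CPM in WT and at 3.58, 4.04, 3.01 and 8.96 CPM in PS19, a difference of 2.04 (SE 0.429, edgeR adjusted p = 0.0025), or 4.10-fold, from 84 reads in WT and 248 in PS19. Of the 14 genes of the standard proteasome tested, edgeR called none in either direction, and their median difference was 0.03.

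At 4 months no member was called in PS19 against WT by edgeR or by DESeq2, where 0.0186% of genes were called. All 9 estimates were below 0, from -1.04 to -0.05. Before adjustment edgeR gave a p under 0.05 to 3.69% of all genes and to 4 members: B2m (-0.59, 95% interval -0.98 to -0.20), Nlrc5 (-1.04, -1.81 to -0.27), Tap1 (-0.59) and Tap2 (-0.34). The edgeR adjusted p was 1 for each. The groups overlapped for every member. For B2m the lowest, median and highest of 6 WT libraries were 66.7, 71.4 and 139.9 CPM, and those of 6 PS19 libraries 45.6, 51.6 and 77.2 CPM. For H2-D1 they were 9.72, 14.3 and 82.8 CPM in WT and 10.8, 22.3 and 28.4 CPM in PS19, and for H2-K1 18.9, 24.9 and 66.3 CPM in WT and 15.9, 21.7 and 30.8 CPM in PS19. One WT library at 4 months, replicate 4, held the highest value in that group of every member but Tap2, and its members summed to 357 CPM against 147 to 176 in the other 5. Its Nlrc5 was at 6.01 CPM against 1.12 to 3.45 in the others. This library also enters the comparison of the ages in WT and the difference of the PS19 effect between the ages, both below.

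Between 4 and 9 months all 9 members rose in PS19 mice, where edgeR called 10.0% of genes higher. The libraries of the 2 ages did not overlap for any member, as for 8.11% of genes in this direction. B2m rose by 1.83 on the log2 scale (SE 0.214, edgeR adjusted p = 1.73e-06) and Psmb8 by 1.89 (edgeR adjusted p = 3.36e-05), while Tapbp rose least, by 0.61 (edgeR adjusted p = 0.000845). H2-D1 rose by 1.69 (edgeR adjusted p = 0.0207), and by 1.09 with an adjusted p of 0.178 without replicate 5 at 9 months, which ends the call, as does the replicate number as a block (1.53, edgeR adjusted p = 0.074). In WT mice edgeR called 0.0% of genes and no member between the ages, and DESeq2 called none. All 9 estimates were below 0, from -1.07 to -0.07. Before adjustment edgeR gave a p under 0.05 to 11.2% of all genes and to 2 members, B2m (-0.44) and Nlrc5 (-1.07), and the smallest edgeR adjusted p was 0.324.

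The difference of the PS19 effect between the ages was tested as an interaction, which shares its libraries with the comparisons above. It was called higher at 9 months for 8 members, where 4.37% of genes were. It was largest for Nlrc5 (3.08, edgeR adjusted p = 0.00183) and was 2.35 for H2-K1 (0.00178), 2.33 for Psmb8 (0.000544), 2.26 for B2m (2.78e-05), 1.74 for Tap1 (0.00533), 1.53 for Psmb9 (0.00589), 1.12 for Tap2 (0.00526) and 0.68 for Tapbp (0.0145), with edgeR adjusted p-values in parentheses. For H2-D1 it was 2.32 (SE 0.701) with an edgeR adjusted p of 0.0553.

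Around the members, other genes of the pathway were read from lists. At 9 months edgeR called 5 of 10 other class I heavy chains higher in PS19 and none lower, with H2-Q4 at 2.05, H2-T23 at 1.39 and H2-M3 at 1.21 among them (median of the list 0.94, against -0.0081 over all genes tested). Of 13 other steps of class I presentation 4 were called higher, among them the regulator Irf1 (0.68), the peptide trimming enzyme Erap1 (0.52) and the proteasome activator Psme1 (0.32), and the median was 0.09. MHC class II genes, which present peptides to helper T cells, were called higher in 8 of 9 cases with a median of 2.10: Cd74 4.14, H2-Aa 3.51 and H2-Ab1 3.27. Interferon-induced genes were called higher in 33 of 36 cases with a median of 1.63, among them Ifitm3 (1.64), Irgm1 (1.62) and Slfn5 (1.14). Of 7 interferon receptors and ligands 2 were called, Ifngr1 at 0.45 and Ifnar2 at 0.46. At 4 months no gene of any of these lists was called by edgeR.

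Markers of several cell types moved with these results, those of microglia among them. All 8 microglia markers were called higher in PS19 at 9 months (median 1.00, with C1qa at 2.23 and Cx3cr1 at 1.06), and their summed level was 343 to 382 CPM in WT and 816 to 1054 CPM in PS19. Of 6 border macrophage markers 1 was called, Mrc1 at 0.97, and a list of T cell genes summed to 2.15 to 9.65 CPM in PS19 against 0.666 to 1.99 CPM in WT. Summed markers of 3 other types did not overlap between the genotypes either: those of astrocytes were at 5600 to 6447 CPM in WT and 8762 to 10045 in PS19, those of mural cells at 229.7 to 330.6 and 333.6 to 407.1, and those of granule neurons at 544 to 708 and 421 to 468. PS19 replicate 5 was highest in the members' sum (713 CPM against 281 to 402 in the other 3), in the interferon-induced sum (1262 against 345 to 507) and in the microglia sum (1054 against 816 to 882), but lowest in the MHC class II sum (111 against 176 to 215). Summed markers of choroid plexus and ependyma overlapped between the genotypes but varied widely between libraries. They ran from 114 to 6324 CPM at 4 months and from 768 to 5817 CPM at 9 months. The part of these cell types in the members' differences between genotypes and between ages was not tested in bulk.

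Across the 21 bulk libraries the genes whose log2 CPM ran most like the mean of the 9 members were Irgm1 (r = 0.96), Gbp2 (0.955), H2-Q4 (0.952), Parp9 (0.949), Eif2ak2 (0.948), Ifitm3 (0.946), Parp14 (0.944), Ddx58 (0.934), Ifi44 (0.933) and H2-T23 (0.93). These Pearson r are descriptions, and the libraries share the 4 groups. With group means removed they were 0.807 to 0.916. Among themselves the members correlated at 0.455 (Tap2 with H2-D1) to 0.953 (B2m with H2-K1), with a median of 0.852, and of 0.651 with group means removed.

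In nuclei, counts were summed per library and cell class and are given as CPM of that class. Clusters were made without the members and without other class I, class II and interferon-induced genes, so that the members did not define the classes. Named classes are like the cell type of their markers: 32033 nuclei of other excitatory neurons, 30065 of oligodendrocytes, 29037 of granule neurons, 9305 of microglia, 8522 of inhibitory neurons, 4221 of oligodendrocyte precursors (OPC) and 4177 of astrocytes, with smaller classes of Cajal-Retzius neurons (817), fibroblasts (665), mural cells (581), endothelium (517), border macrophages (234) and T cells (107).

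Among endothelium and the large classes of WT nuclei the heavy chains were highest in endothelium and microglia and lowest in neurons. H2-D1 was at 236 ± 44.6 CPM in endothelium (SD, n = 3), 37.7 ± 3.27 in microglia, 18.9 ± 1.54 in OPC, 6.80 ± 3.27 in oligodendrocytes, 5.11 ± 1.24 in astrocytes, 3.30 ± 0.745 in other excitatory neurons, 3.14 ± 0.98 in inhibitory neurons and 2.74 ± 1.25 in granule neurons. Among these classes endothelium, microglia and OPC did not overlap with the next in any library, while oligodendrocytes, astrocytes and neurons overlapped with their neighbours. Border macrophages (116 ± 54.2 CPM from 9 UMIs), mural cells (47.2 ± 27.7) and fibroblasts (32.1 ± 28.0) were high but overlapped with microglia or rested on few UMIs. H2-K1 had another order below microglia among the same classes: 153 ± 28.3 CPM in endothelium, 39.3 ± 14.9 in microglia, 21.4 ± 6.97 in astrocytes, 11.8 ± 4.82 in OPC, 5.14 ± 2.44 in oligodendrocytes and 0.578 to 1.18 on average in the neuron classes. Border macrophages (0, 80.7 and 167 CPM), mural cells (0, 26.5 and 47.2) and fibroblasts (31.3, 15.6 and 0) are left out of this order and rested on few UMIs. B2m was at 152 ± 79.3 CPM in endothelium, 65.2 ± 11.4 in microglia, 12.6 ± 1.11 in astrocytes, 8.58 ± 4.33 in OPC, 4.50 ± 1.09 in oligodendrocytes and 1.37 to 2.13 in neurons. Of the immunoproteasome, Psmb9 was at 32.9 ± 7.44 CPM in microglia and at 0 UMIs in the 3 WT libraries of oligodendrocytes.

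Of 45 pairs of a member and a class that could be tested in PS19 against WT, 14 were called, all higher in PS19. They fell in 6 of the 7 classes where members were tested, in which 0.0389% (inhibitory neurons) to 5.27% (microglia) of genes were called higher. DESeq2 called 16. The calls were of the heavy chains, B2m and Nlrc5, and no pair of Tap1, Tap2, Tapbp, Psmb8 or Psmb9 with a class was called by edgeR. With the library set as a block edgeR called 19. The share of all genes called with that block is not given here, so the count is not a result about the members.

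**Figure D2:**
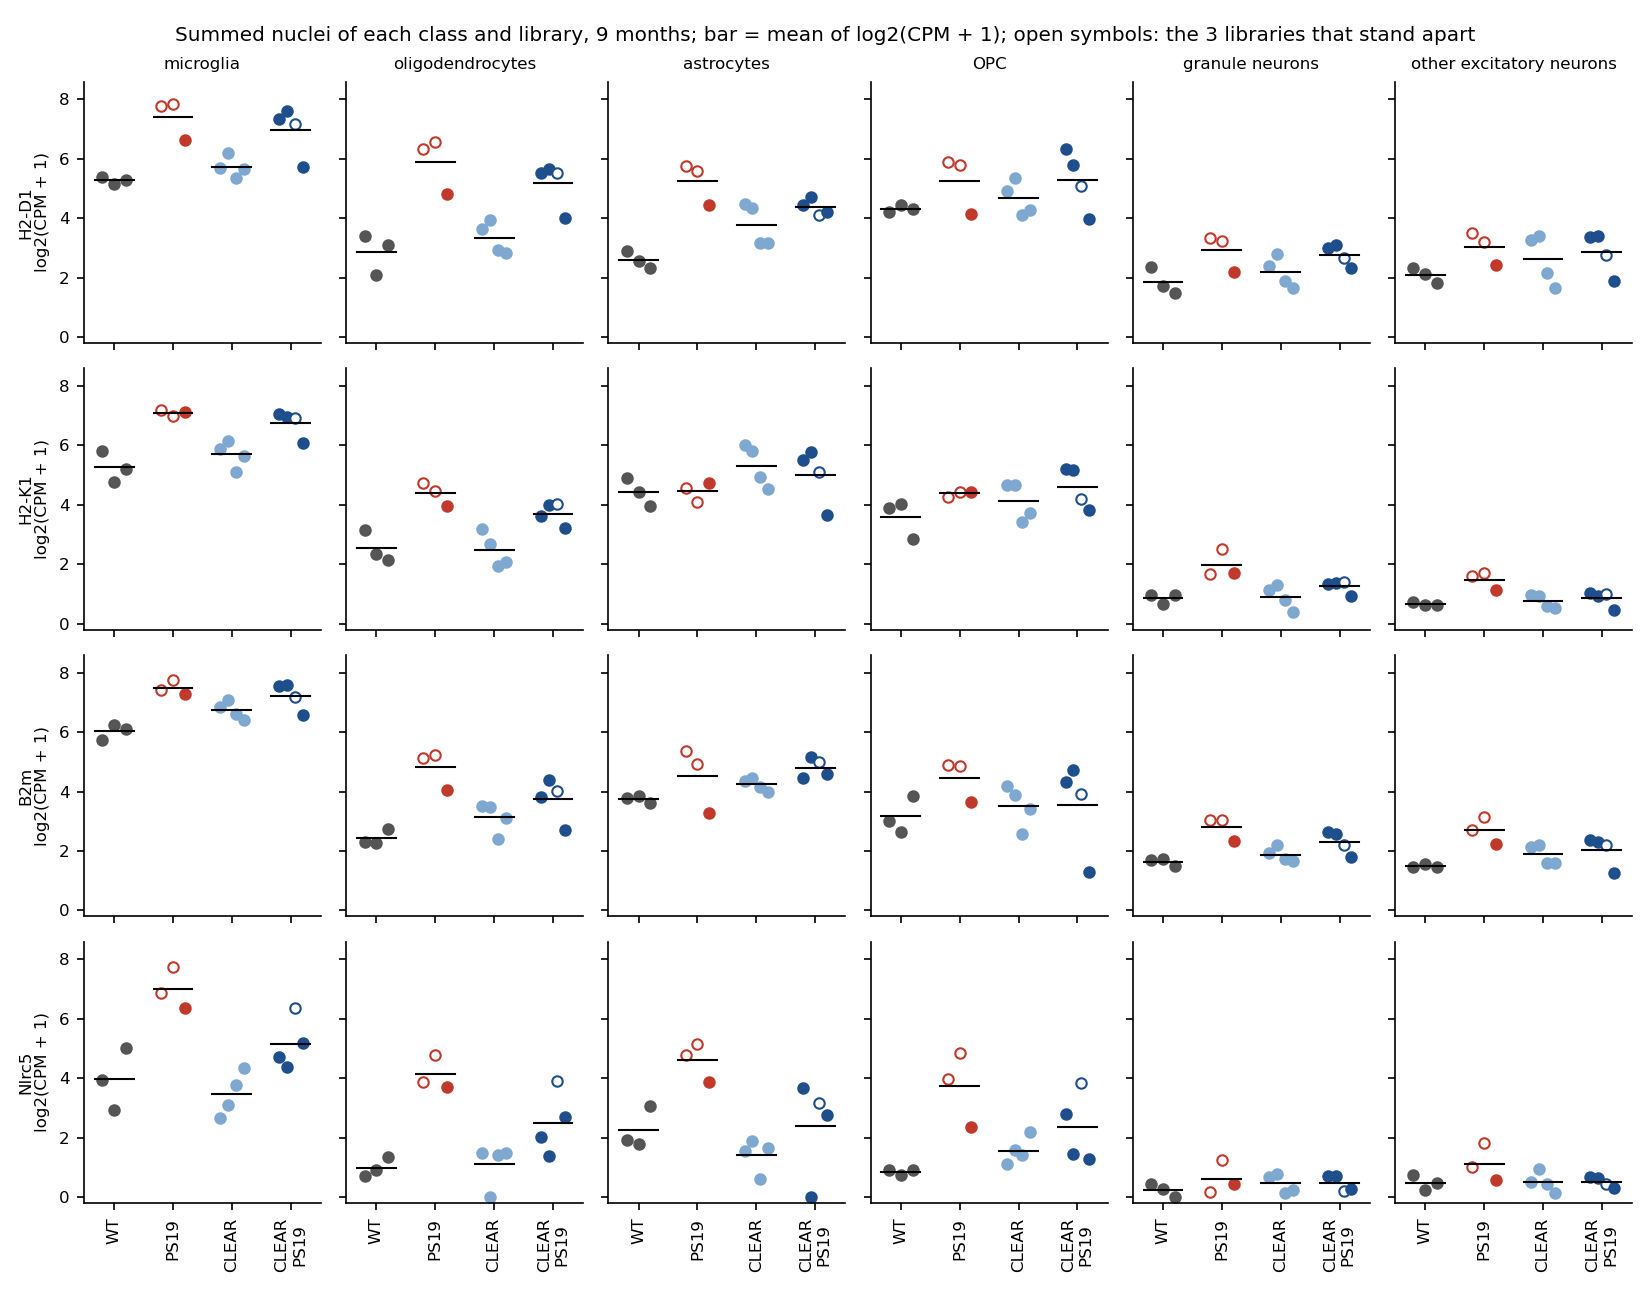
Level of H2-D1, H2-K1, B2m and Nlrc5 as log2(CPM + 1) in summed nuclei of 6 classes, 1 point per library, with the mean of each group as a bar and open symbols for the 3 libraries that stand apart. In microglia and oligodendrocytes the PS19 points lie above the WT points for all 4 genes.

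Microglia, the resident macrophages of the brain, held the highest levels among the large classes. H2-D1 was at 41.0, 34.4 and 37.7 CPM in WT and at 218, 227 and 97.2 CPM in PS19 (difference 2.20 with SE 0.303, edgeR adjusted p = 0.000594). H2-K1 was at 55.5, 26.2 and 36.1 CPM in WT and at 145, 125 and 140 CPM in PS19 (1.78 with SE 0.273, edgeR adjusted p = 0.000984). B2m was at 52.9, 75.4 and 67.3 CPM in WT and at 169, 216 and 155 CPM in PS19 (1.46 with SE 0.213, edgeR adjusted p = 0.000787). For these 3 genes every PS19 library was above every WT library, as for 12.7% of genes in microglia. Nlrc5 was at 14.5, 6.56 and 31.2 CPM in WT and at 115, 216 and 80.6 CPM in PS19 (2.99 with SE 0.594, edgeR adjusted p = 0.00465). Of the 9 members tested in microglia 4 were called, where 5.27% of genes were called higher.

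Different clusters held most of the microglia in the 2 genotypes. WT libraries had 277 to 377 nuclei in cluster 17 and 7 to 20 in cluster 18, whereas PS19 replicates 1 and 2 had 39 and 15 in cluster 17 and 1050 and 1391 in cluster 18, and PS19 replicate 3 had 378 and 334. Within cluster 17, over libraries with at least 20 nuclei, H2-D1 was at 30.2 to 40.4 CPM in WT and at 187 and 72.9 CPM in PS19 replicates 1 and 3, and Nlrc5 at 4.69 to 15.5 and at 101 and 36.4 CPM. Within cluster 18 H2-D1 was at 115 CPM in the 1 WT library with enough nuclei, from 5 UMIs, and at 117 to 221 CPM in PS19, while Nlrc5 was at 344 CPM in that WT library, from 15 UMIs, and at 116 to 211 CPM in PS19. The clusters of microglia were not tested, and the part of their mixture in the difference of the class was not tested.

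The other members were also found in microglia but were not called by edgeR. Psmb8 was at 14.5, 11.5 and 18 CPM in WT and at 31.7, 28.8 and 21.6 CPM in PS19, groups that did not overlap (difference 0.89, edgeR adjusted p = 0.106). Its tau effect over both backgrounds passed an exact permutation test (0.89, permutation p = 0.0107 adjusted over the 30 pairs of a member and a class so tested, a test not run over other genes). Pairs entered that test by a mean of at least 20 UMIs over all libraries, including those with tau, where Psmb8 was higher. The result therefore supports nothing by itself. Psmb9 was at 26.4, 31.2 and 41.0 CPM in WT and at 27.1, 23.8 and 32.4 CPM in PS19 (-0.27, edgeR adjusted p = 0.733). Tap2 was at 31.7, 39.3 and 31.2 CPM in WT and at 25.0, 34.1 and 21.6 CPM in PS19 (-0.33, edgeR adjusted p = 0.477). Tap1 and Tapbp overlapped between the genotypes as well (0.28 and 0.29, edgeR adjusted p = 0.727 and 0.577). In bulk tissue Psmb9 was called higher in PS19 (1.31), as in the sum of all nuclei, where 7 of 9 members were called against 4.08% of genes, while its level within microglia was not. In that sum the calls of Psmb8, Psmb9 and Tap1 ended without WT replicate 1, WT replicate 2 or PS19 replicate 2 and that of Nlrc5 without WT replicate 1 or 2 (edgeR adjusted p up to 0.137), and without the 3 libraries that stand apart only H2-K1 was still called (1.96, 0.013).

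Microglia were 4.2% ± 0.454 of kept nuclei in WT and 11.4% ± 3.34 in PS19, and they held 63.2% ± 3.84 of all Psmb9 UMIs in WT and 67.2% ± 3.44 in PS19. For the genes called within the class the microglial share of the UMIs went from lower to higher values: H2-K1 from 15.8% ± 5.88 to 46.7% ± 1.23, B2m from 18.4% ± 0.893 to 41.5% ± 4.61, Nlrc5 from 19.5% ± 5.77 to 54.5% ± 5.84 and H2-D1 from 8.09% ± 1.37 to 29.1% ± 5.62. Oligodendrocytes held 8.92% ± 4.44 of the H2-D1 UMIs in WT and 29.4% ± 4.17 in PS19, as many as microglia, and other excitatory neurons, the largest holder in WT at 30.7% ± 2.59, held 15.9% ± 5.47 in PS19. These shares depend on the number of nuclei of each class and on their depth and were not tested.

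**Figure D3:**
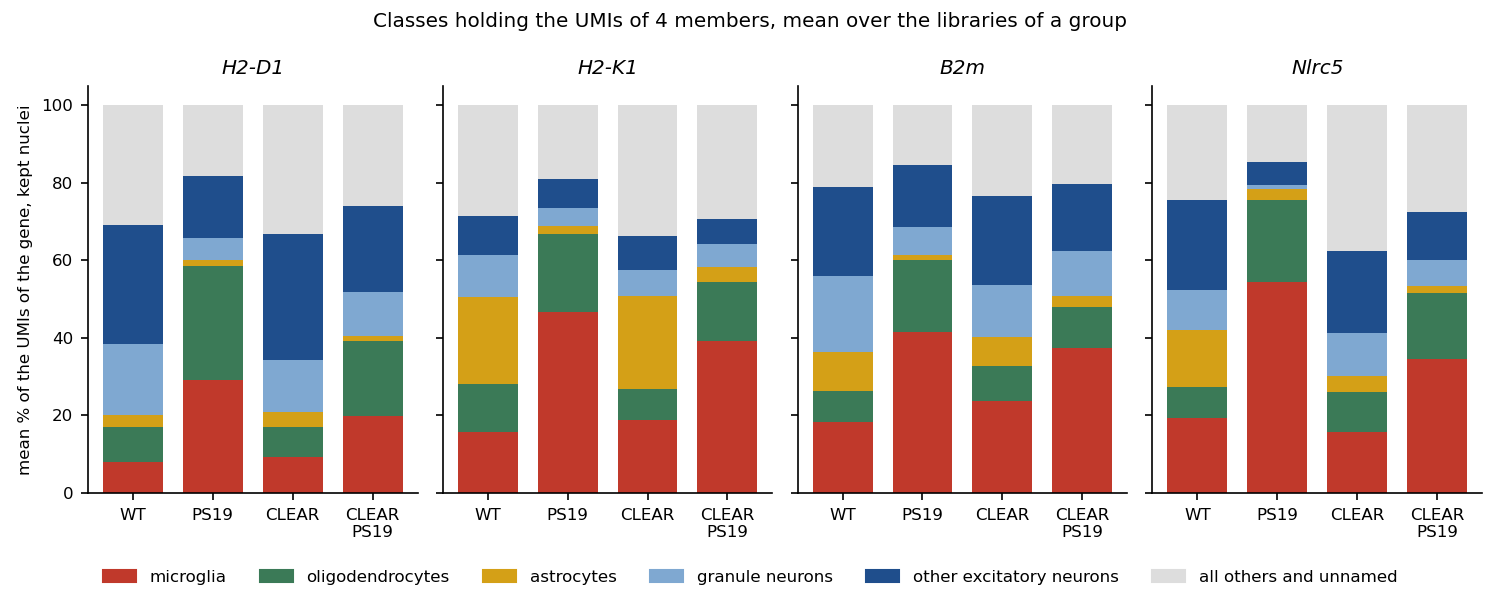
Mean percentage of the UMIs of H2-D1, H2-K1, B2m and Nlrc5 in kept nuclei that fell in each class, by group, as stacked bars with all other and unnamed nuclei in grey. Microglia held 8.09% of H2-D1 UMIs in WT and 29.1% in PS19, and oligodendrocytes 8.92% and 29.4%.

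Oligodendrocytes, the myelin-forming cells, had the largest fold difference in H2-D1, and that of astrocytes, given below, was close to it. It was at 9.60, 3.21 and 7.58 CPM in WT and at 79.7, 93.9 and 27.0 CPM in PS19, with no overlap (difference 3.12, SE 0.366, edgeR adjusted p = 0.00112). B2m was at 3.96, 3.79 and 5.75 CPM in WT and at 34.0, 37.0 and 15.7 CPM in PS19 (2.61 with SE 0.378, edgeR adjusted p = 0.00383). H2-K1 was at 7.93, 4.08 and 3.40 CPM in WT and at 25.5, 21.3 and 14.4 CPM in PS19 (1.96 with SE 0.284, edgeR adjusted p = 0.00383). In all 3 genes PS19 replicates 1 and 2 were the highest libraries and replicate 3 lay between them and WT. Nlrc5 was at 0.626, 0.875 and 1.57 CPM in WT, from 12 UMIs in all, and at 13.8, 26.7 and 12.2 CPM in PS19 (4.09 with SE 0.741, edgeR adjusted p = 0.0181). The Nlrc5 call was lost without WT replicate 1 (edgeR adjusted p = 0.135), WT replicate 2 (0.119) or PS19 replicate 2 (0.102) and in males alone (0.0749), and that of B2m without WT replicate 1 (2.36, 0.0532). Nlrc5 passed the filter on low counts here through the groups with tau, where it is high, so its call supports nothing by itself. Of 6 members that passed the filter on low counts 4 were called, where 0.631% of genes were called higher.

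Tapbp and Tap2 were tested in oligodendrocytes and not called. Tapbp was at 4.80, 3.21 and 5.49 CPM in WT and 7.66, 8.95 and 7.98 CPM in PS19 (0.86, edgeR adjusted p = 0.123), and Tap2 at 1.67, 0.875 and 1.05 CPM in WT and 4.67, 5.58 and 3.99 CPM in PS19 (1.93, edgeR adjusted p = 0.192). Neither pair of groups overlapped, and 7.41% of genes in the class were so separated with PS19 higher. Tap2, like Nlrc5, passed the filter on low counts through the groups with tau, so its separation supports nothing by itself. The tau effect of Tapbp over both backgrounds passed the exact permutation test (0.52, permutation p = 0.0234 adjusted over the 30 pairs). Pairs entered that test by a mean of at least 20 UMIs over all libraries. Tapbp had 11 to 25 UMIs in the libraries without tau and 16 to 69 in those with it. It reached the mean through the groups with tau, so this result supports nothing by itself. Tap1, Psmb8 and Psmb9 did not pass the filter on low counts. Over the 3 libraries of a group Tap1 had 0 UMIs in WT and 48 in PS19, at least 9.5-fold higher against a floor of 3 UMIs over the group, and Psmb9 had 0 and 27, at least 5.35-fold higher. These bounds cover counting error only, and they have no test. By library Tap1 had 25, 22 and 1 UMIs in PS19 and Psmb9 had 12, 12 and 3. The Tap1 bound thus rests on PS19 replicates 1 and 2, which stand apart. In replicate 3 Tap1 was at 0.222 CPM, under the WT floor of 0.244 CPM.

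The oligodendrocyte class was made of 3 clusters, of which 2 held enough nuclei in every library for a test. H2-D1 and B2m were called higher in PS19 in both. In cluster 3 H2-D1 was at 7.41 ± 5.01 CPM in WT and 60.3 ± 29.1 in PS19 (difference 2.84, SE 0.443, edgeR adjusted p = 0.00595), and H2-K1 (2.09, 0.0198), B2m (2.28, 0.0491) and Nlrc5 (3.76, 0.0298) were also called, where 0.341% of genes were called higher. In cluster 4 H2-D1 was at 5.77 ± 1.07 CPM in WT and 40.9 ± 18.2 in PS19 (2.72, edgeR adjusted p = 0.00024) and B2m was called (2.81, edgeR adjusted p = 0.000278), where 0.203% of genes were, while Nlrc5 (3.37, edgeR adjusted p = 0.114) and H2-K1 (1.45, 0.192) were not. Cluster 5, with C4b at 416 CPM against 107 and 179 in clusters 3 and 4, held H2-D1 at 92.9 ± 26.0 CPM in PS19 and 87.3 ± 34.8 in CLEAR_PS19, with too few WT nuclei for a test. Without cluster 5 the class was still called for H2-D1 (2.72, edgeR adjusted p = 0.00188), H2-K1 (1.81, 0.0123), B2m (2.44, 0.00651) and Nlrc5 (3.69, 0.0354) in PS19 against WT. The Nlrc5 calls of this paragraph are in parts of the same nuclei as the class call, so they also support nothing by themselves.

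**Figure D4:**
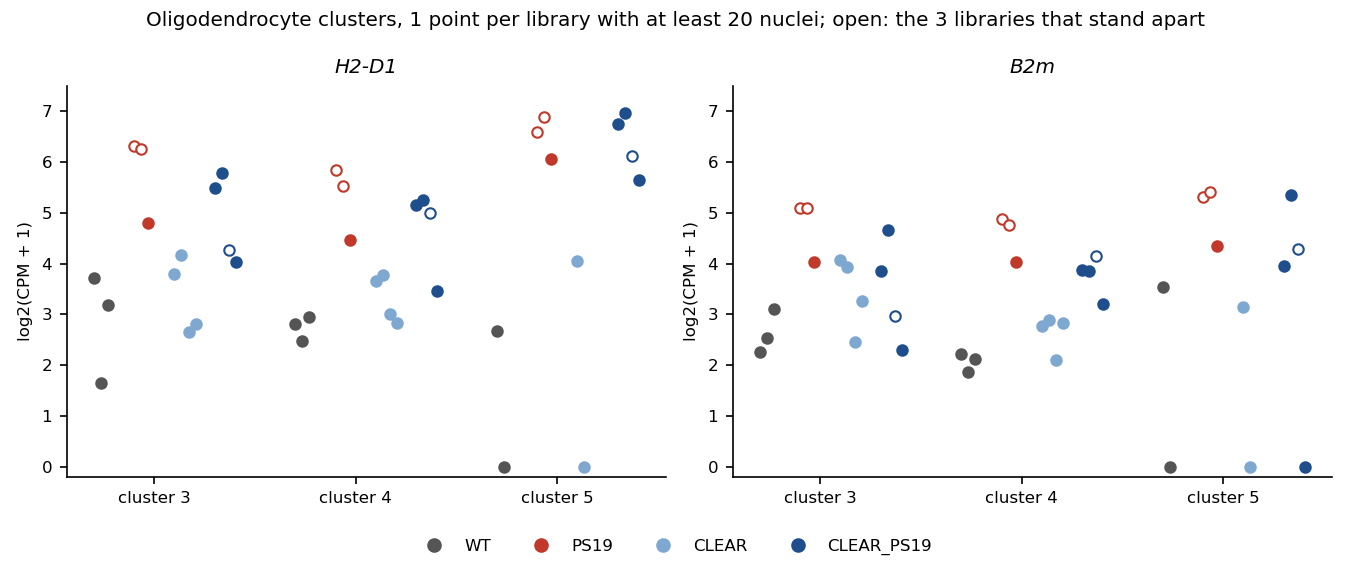
H2-D1 and B2m as log2(CPM + 1) in the 3 oligodendrocyte clusters, 1 point per library with at least 20 nuclei of the cluster, by group, with open symbols for the 3 libraries that stand apart. In clusters 3 and 4 all 3 PS19 libraries lie above the 3 WT libraries in both genes.

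Astrocytes differed from the other glia in H2-K1. H2-D1 was at 6.46, 4.85 and 4.02 CPM in WT and at 53.4, 46.5 and 20.7 CPM in PS19, with no overlap (2.98, SE 0.375, edgeR adjusted p = 0.000555), and Nlrc5 at 2.77, 2.43 and 7.36 CPM in WT and at 26.7, 34.6 and 13.8 CPM in PS19 (2.64 with SE 0.534, edgeR adjusted p = 0.0169). The Nlrc5 call was lost without WT replicate 1 (edgeR adjusted p = 0.112), WT replicate 2 (0.307), PS19 replicate 1 (0.0905) or PS19 replicate 2 (0.298), and the gene did not pass the filter, and could not be fitted, without any 1 of the 4 CLEAR libraries. As in oligodendrocytes it passed the filter through the groups where it is high, so the call supports nothing by itself. H2-K1 was at 28.6, 20.8 and 14.7 CPM in WT and at 22.9, 16.0 and 25.9 CPM in PS19, within the same range (0.05, edgeR adjusted p = 0.998). B2m was at 12.9, 13.5 and 11.4 CPM in WT and 40.1, 29.3 and 8.63 CPM in PS19, with replicate 3 below WT (0.99, edgeR adjusted p = 0.237). EdgeR called 2 of 6 members, where 0.631% of genes were called higher. Astrocytes were 5.98% ± 2.91 of kept nuclei in WT and 1.82% ± 0.618 in PS19, so these PS19 values rest on few nuclei.

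In OPC 1 of 5 members was called, where 0.244% of genes were called higher. Nlrc5 had 3 UMIs in the 3 WT libraries and 72 in PS19, a ratio of 22.1 with a 95% counting interval of 7.27 to 110 (edgeR difference 4.14, SE 0.779, adjusted p = 0.0199). This call was lost without WT replicate 1 (edgeR adjusted p = 0.133), WT replicate 2 (0.323) or PS19 replicate 2 (0.287), and it could not be fitted without CLEAR_PS19 replicate 3 or without the 3 libraries that stand apart. Nlrc5 passed the filter on low counts in OPC through the groups where it is high, so the call supports nothing by itself. H2-D1 was at 17.4, 20.5 and 18.9 CPM in WT and at 57.7, 53.7 and 16.6 CPM in PS19, where replicate 3 was at the WT level (1.12, edgeR adjusted p = 0.378).

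Neurons held little of these transcripts, and the calls there were few. In granule neurons of the dentate gyrus B2m was at 2.22, 2.35 and 1.80 CPM in WT and at 7.29, 7.26 and 4.08 CPM in PS19, with no overlap, as for 5.11% of genes there (1.53, SE 0.219, edgeR adjusted p = 0.00719). B2m was the 1 call of 6 members where 0.271% of genes were called higher. Without sex as a covariate its edgeR adjusted p was 0.0885. H2-D1 was at 4.15, 2.26 and 1.80 CPM in WT and 9.14, 8.47 and 3.54 CPM in PS19 (1.32, edgeR adjusted p = 0.0656), and H2-K1 at 0.966, 0.589 and 0.966 CPM in WT and 2.17, 4.67 and 2.27 CPM in PS19 (1.77, edgeR adjusted p = 0.0814). In other excitatory neurons 2 of 7 members were called, where 0.189% of genes were. B2m was at 1.75, 1.92 and 1.74 CPM in WT and at 5.48, 7.90 and 3.73 CPM in PS19 (1.61 with SE 0.271, edgeR adjusted p = 0.034), and H2-K1 at 0.646, 0.559 and 0.53 CPM in WT and at 2.01, 2.28 and 1.20 CPM in PS19 (1.63 with SE 0.282, edgeR adjusted p = 0.0349). Both calls ended without WT replicate 1 or 2, PS19 replicate 1 or 2, CLEAR replicate 1 or CLEAR_PS19 replicate 1 or 2, and that of H2-K1 also without CLEAR replicate 2 or 4, with edgeR adjusted p-values up to 0.186 for B2m and 0.202 for H2-K1. In inhibitory neurons none of 6 members was called by edgeR, where 0.0389% of genes were called higher, and B2m was at 1.14, 1.23 and 1.75 CPM in WT and 5.30, 7.13 and 2.29 CPM in PS19 (1.82, edgeR adjusted p = 0.343).

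Transcripts known from microglia were also higher outside microglia. In each of the other 6 large classes the complement gene C1qa was called higher in PS19 (differences of 2.05 to 2.70): in granule neurons it was at 2.44 ± 0.511 CPM in WT and 11.9 ± 3.98 in PS19, and in oligodendrocytes at 9.11 ± 2.67 and 41.9 ± 12.1. Of the microglia list, edgeR called 2 of 7 genes higher in granule, other excitatory and inhibitory neurons each, 2 of 6 in oligodendrocytes, 2 of 5 in OPC and 1 of 5 in astrocytes. The summed markers were at 141 to 245 CPM in WT and 180 to 262 in PS19 granule neurons, at 98.0 to 173 and 133 to 192 in other excitatory neurons, and at 69.7 to 87.4 and 127 to 163 in oligodendrocytes, all markers of the list being detected. In microglia they were at 8141 to 9147 CPM in WT and 5427 to 7330 in PS19.

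The levels were also set against the microglia of the same library. In granule neurons B2m was at 2.63% to 4.33% of its microglial level in PS19 and the summed markers at 2.88% to 4.05%. H2-D1 there was at 4.78% to 10.1% of its microglial level in WT and 3.64% to 4.2% in PS19, with the markers at 1.55% to 2.77% in WT. In PS19 other excitatory neurons B2m was at 2.40% to 3.66% of its microglial level, the summed markers at 2.13% to 3.10% and H2-K1 at 0.861% to 1.83%. H2-D1 there was at 6.73% to 9.83% in WT and 3.59% to 4.7% in PS19. In oligodendrocytes H2-D1 was at 27.8% to 41.3% of its microglial level in PS19 and B2m at 10.1% to 20.2%, where the summed markers were at 1.74% to 2.76%. In WT oligodendrocytes the ranges were 9.32% to 23.4% for H2-D1, 5.03% to 8.55% for B2m and 0.762% to 1.07% for the markers. The part of microglial RNA in the neuronal values was not tested. Endothelial markers in oligodendrocytes summed to 5.01 to 8.1 CPM in WT and 5.63 to 9.21 in PS19, and T cell markers to 1.17 to 2.09 and 1.68 to 3.76.

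The share of single nuclei with a UMI was compared at equal depth. After each nucleus was thinned to 1000 UMIs, leaving out 151 of 5507 shallower WT nuclei and 150 of 8505 in PS19, H2-D1 was seen in 0.561% ± 0.215 of oligodendrocytes in WT and 6.08% ± 3.11 in PS19 (1.37% and 13.2% without thinning). The microglial gene Cx3cr1, which oligodendrocytes should lack, was seen in 2.24% and 2.22% of the same thinned nuclei, and in 65.7% and 51.8% of thinned microglia. Another microglial gene, C1qa, was seen in 0.967% of the thinned oligodendrocytes in WT and 4.29% in PS19, and in 34.2% and 34.6% of thinned microglia. H2-D1 itself was seen in 3.77% and 15.8% of thinned microglia, so that it is a rarer transcript there and these shares are not on 1 scale. In granule neurons H2-D1 was seen in 0.326% and 0.99% of thinned nuclei, Cx3cr1 in 1.62% and 1.66% and C1qa in 0.301% and 1.20%. The part of RNA from other cells in these shares was not tested.

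The size of the tau effect was compared between classes. For each member it was taken as the mean of PS19 minus WT and CLEAR_PS19 minus CLEAR in log2 CPM, and the difference between 2 classes was tested by exact permutation of the tau genotype within each background (1400 relabellings, two-sided, smallest p 0.00143), with adjustment over the 54 class differences compared, of which 19 were called. The H2-D1 effect was larger in oligodendrocytes than in microglia by 0.85, than in other excitatory neurons by 1.83, and than in granule and inhibitory neurons and OPC by 1.52, 1.84 and 1.75, each with an adjusted permutation p of 0.00964. A class was compared for a member only where its mean over all libraries, with and without tau, was at least 20 UMIs. Astrocytes did not reach this for H2-D1, so their effect was not compared with that of oligodendrocytes. H2-K1 in oligodendrocytes, at 12 to 38 UMIs in the libraries without tau, reached it only through those with tau. Its differences in that class therefore support nothing by themselves. The H2-K1 effect was smaller in astrocytes than in microglia by 1.57, than in oligodendrocytes by 1.78 and than in granule neurons by 1.31 (adjusted permutation p = 0.00964 each). For B2m 1 class difference was called, oligodendrocytes above other excitatory neurons by 0.71 (adjusted permutation p = 0.0129).

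**Figure D5:**
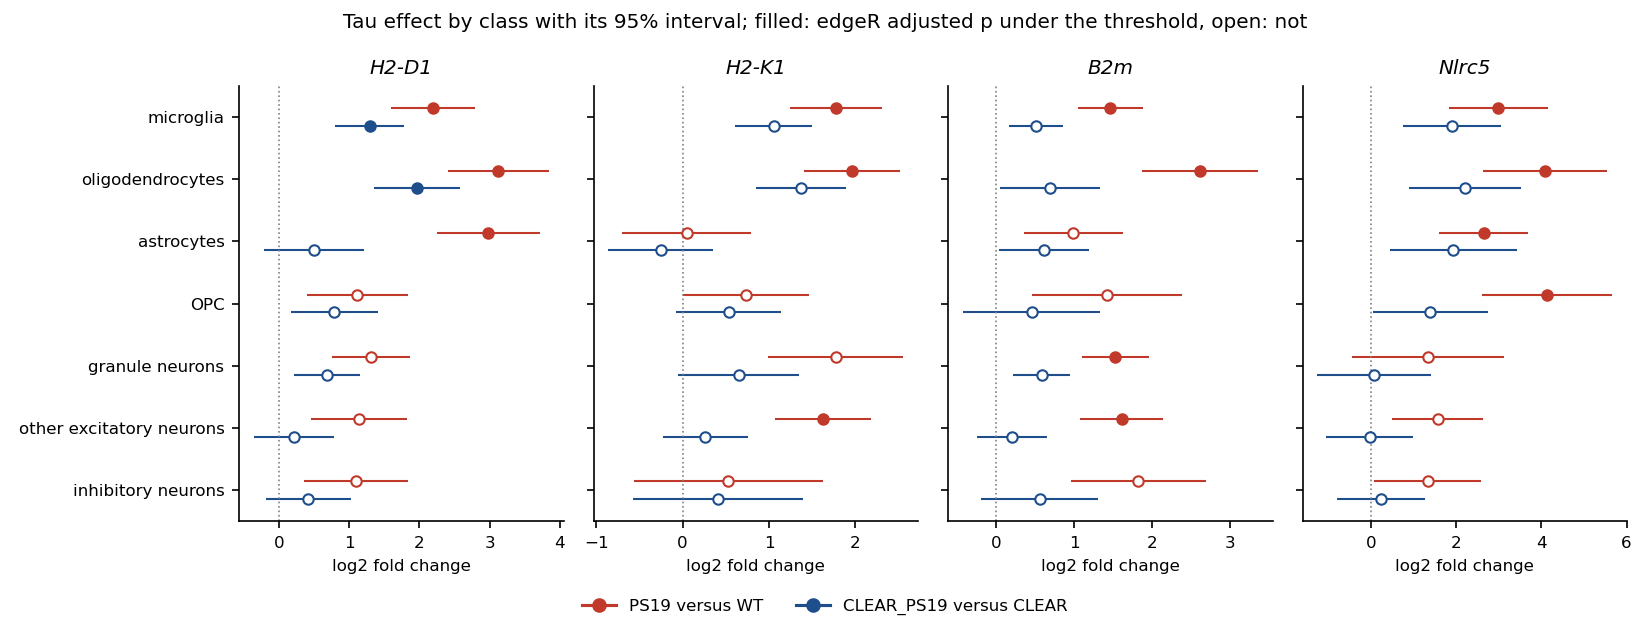
Log2 fold change with its 95% interval for PS19 against WT and for CLEAR_PS19 against CLEAR, by class, for H2-D1, H2-K1, B2m and Nlrc5, with filled points where the edgeR adjusted p was under 0.05. H2-D1 has filled points in both backgrounds in microglia and oligodendrocytes, and the H2-K1 points of astrocytes lie near 0.

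In the CLEAR background edgeR called 2 of 45 pairs in CLEAR_PS19 against CLEAR, both of H2-D1 and both higher. DESeq2, run without the filter on low counts, called 5 pairs. In the classes with no call edgeR called 0.00942% (astrocytes) to 0.0471% (granule neurons) of genes higher, with 0.0436% in OPC, 0.021% in other excitatory and 0.0195% in inhibitory neurons. In microglia H2-D1 was at 50.5, 72.1, 39.8 and 49.3 CPM in CLEAR and at 160, 193, 144 and 52.3 CPM in CLEAR_PS19 (difference 1.29 with SE 0.251, edgeR adjusted p = 0.0377, with 0.291% of genes called higher in this class). CLEAR_PS19 replicate 4, the female of the group, lay within the CLEAR range, so the groups overlapped. In oligodendrocytes H2-D1 was at 11.4, 14.4, 6.63 and 6.11 CPM in CLEAR and at 44.5, 49.5, 44.8 and 15.1 CPM in CLEAR_PS19 (1.96 with SE 0.313, edgeR adjusted p = 0.0362, with 0.0445% of genes called higher). Here replicate 4 was again the lowest but stayed above every CLEAR library. Both calls are near the threshold: 6 and 9 of the 14 single libraries, when left out, took the edgeR adjusted p past it, up to 0.201 in microglia and 0.149 in oligodendrocytes. These were PS19 replicate 1, CLEAR replicates 1, 2 and 3 and CLEAR_PS19 replicates 1 and 2 in both classes, and in oligodendrocytes also PS19 replicate 2, CLEAR replicate 4 and CLEAR_PS19 replicate 3. Without sex as a covariate neither was called (edgeR adjusted p = 0.114 in microglia and 0.29 in oligodendrocytes). The oligodendrocyte call was also lost without cluster 5 (1.68, edgeR adjusted p = 0.0772), with the unnamed cluster 6 added (1.96, 0.0625) and at clustering resolution 0.5 (1.95, 0.0561), in all under 14 of 26 alternatives. Cluster 6 scored highest for oligodendrocytes but had an OPC marker among its leading genes, so its nuclei are not in the oligodendrocyte values. It held 9.71% to 15.1% of kept nuclei in replicates 1 and 2 of CLEAR and CLEAR_PS19, and 0.142% to 1.33% in the other libraries. H2-K1 was at 1.05 in microglia (edgeR adjusted p = 0.0546) and 1.37 in oligodendrocytes (0.0913), and Nlrc5 at 1.90 (0.193) and 2.20 (0.529).

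No effect of the CLEAR mutation without tau was called. In CLEAR against WT none of the 45 pairs was called by edgeR or DESeq2, where edgeR called 0.0% of genes in microglia, astrocytes and OPC, 0.00742% in oligodendrocytes, 0.00588% in granule, 0.00525% in other excitatory and 0.00649% in inhibitory neurons. By the unadjusted p of edgeR's model 3 pairs were under 0.05, where 4.56% to 5.55% of all genes were, and all 3 were higher in CLEAR: B2m in microglia (0.69) and H2-D1 and H2-K1 in astrocytes (1.36 and 0.92). The smallest edgeR adjusted p was 0.769. For H2-D1 the difference was 0.44 in microglia (95% interval -0.19 to 1.07) and 0.31 in oligodendrocytes (-0.46 to 1.08), and these intervals do not show that the groups are alike. CLEAR replicates 1 and 2 are in library set 3, where no WT library is. With the replicate number as a block 5 pairs were called, and with the library set as a block edgeR called 0. The shares of all genes called with these blocks are not given here, so these counts are not results about the members.

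In CLEAR_PS19 against PS19 none of the 45 pairs was called by edgeR, and DESeq2, run without the filter on low counts, called 1 pair. EdgeR called 0.0% of genes in astrocytes and OPC, 0.0097% in microglia, 0.00742% in oligodendrocytes, 0.0177% in granule, 0.00525% in other excitatory and 0.013% in inhibitory neurons. Of the 45 estimates 35 were below 0, and of 19 with an unadjusted p under 0.05 18 were lower. Over all genes 7.83% (OPC) to 14% (microglia) had such a p in these classes, and the median difference was -0.013 to 0.0086. In oligodendrocytes H2-D1 was at -0.85 (95% interval -1.40 to -0.30), H2-K1 at -0.77 (-1.23 to -0.31), B2m at -1.14 (-1.72 to -0.55) and Nlrc5 at -1.42 (-2.40 to -0.45), with edgeR adjusted p-values of 0.399 to 0.481. Of the libraries that stand apart 2 are among the 3 of PS19 and 1 among the 4 of CLEAR_PS19, and without them H2-D1 was at -0.27, H2-K1 at -0.87, B2m at -0.59 and Nlrc5 at -1.29, with edgeR adjusted p-values of 1 and PS19 left with 1 library, whose spread is taken from the other groups. B2m there was at 34.0, 37.0 and 15.7 CPM in PS19 and at 13.2, 20, 15.3 and 5.53 CPM in CLEAR_PS19. In microglia Nlrc5 had the smallest adjusted p of all pairs (-1.71, edgeR adjusted p = 0.0993), at 25.0, 19.6, 82.1 and 35.8 CPM in CLEAR_PS19 against 80.6 to 216 in PS19. The library at 82.1 CPM is the CLEAR_PS19 replicate 3 that stands apart. The difference of the tau effect between the backgrounds was called for none of the 45 pairs by edgeR or DESeq2 and for 0.0% of genes in every class. It had an unadjusted p under 0.05 for 12 pairs, 11 of them with a smaller effect in the CLEAR background, where 3.13% to 7.1% of all genes had one, and a smallest edgeR adjusted p of 0.479. CLEAR_PS19 replicates 1 and 2 are in library set 3, which holds no PS19 library, so for these the set and the genotype cannot be told apart. In CLEAR_PS19 against PS19 edgeR called 8 pairs with the replicate number as a block and 0 with the library set as a block. The shares of all genes called with these blocks are not given here either.

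The comparisons were repeated without the 3 libraries that stand apart, an alternative added after seeing the data. Without them PS19 is left with replicate 3, a female, whose spread is taken from the other groups, and 2 pairs were called, B2m (1.61, edgeR adjusted p = 0.0247) and H2-K1 (2.14, 0.0208) in microglia. The 13 of the 14 pairs that could be estimated kept their sign, at 1.22 to 2.99. In oligodendrocytes H2-D1 was at 2.55 (edgeR adjusted p = 0.208), H2-K1 at 1.99 (0.445), B2m at 2.06 (0.701) and Nlrc5 at 2.99 (0.306), and in microglia H2-D1 at 1.88 (0.0993). In CLEAR_PS19 against CLEAR 1 of the 2 calls remained, that of H2-D1 in microglia (1.33, 0.0485), and that in oligodendrocytes was lost (1.95, 0.0711). The part of what sets these libraries apart, including their T cell nuclei, was not tested.

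Interferon-induced genes were read from a list in the same classes. In PS19 against WT edgeR called 20 of 27 in microglia, with the interferon feedback protease Usp18 at 3.24 and Lgals3bp at 3.11. In oligodendrocytes 7 of 17 were called, among them Irf9 (2.01), Rsad2 (3.65) and Irgm1 (2.74), in astrocytes 4 of 16, in OPC 3 of 12, in other excitatory neurons 4 of 26, and in granule and inhibitory neurons none of 21 and none of 16. Of the other class I heavy chains 4 of 7 were called in microglia and none in the other classes tested, with H2-Q4 at 2.42, H2-Q6 at 4.53 and H2-T22 at 1.49. No gene of the standard proteasome or of the other steps of class I presentation was called in any class. The homeostatic genes P2ry12 (-0.98), Csf1r (-0.68) and Cx3cr1 (-0.52) were called lower within PS19 microglia.

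Across the 14 libraries of oligodendrocytes the genes most like the mean of the 6 tested members included Anxa2 (r = 0.946), Parp3 (0.943), Gm40841 (0.935), Flnc (0.935), Cela1 (0.935), C1qa (0.934), Lgi4 (0.933), C1qb (0.93) and Gm10501 (0.93). These are descriptions over libraries that share groups, and with group means removed r was 0.608 to 0.852. C1qa and C1qb are microglial genes. Among the 6 members r was 0.631 (Tapbp with Tap2) to 0.925 (H2-K1 with H2-D1), with a median of 0.715. With group means removed it was -0.167 to 0.838, with a median of 0.367.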

How the data were processed

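Counts per gene were deposited by the authors for 21 bulk libraries and as UMI counts per nucleus for 14 droplet libraries. Per the file headers the nuclei were counted with Cell Ranger 5.0.1, and the 1 bulk table with a header names featureCounts 2.0.0 without strand. Per the submitters' processing notes the genome was mm10. Nuclei with at least 300 genes and at most 5% mitochondrial UMIs were kept, doublets removed with Scrublet, and the rest clustered (Scanpy 1.11.5, Leiden resolution 1) with 79 class I, class II and interferon-induced genes left out. Sums of counts were made for each library within a class, and classes with at least 20 nuclei in every library were tested with edgeR 4.0.16 (R 4.3.3): TMM, filterByExpr, quasi-likelihood test, sex as a covariate in nuclei, Benjamini-Hochberg adjustment over all genes, threshold 0.05. CPM are counts relative to the TMM-scaled library total, and log2 CPM has a prior count of 2. Intervals are 95% and, for UMI ratios and floors, cover counting error only. Named were all 9 members, the 3 called genes with the smallest p of each list, and the 10 genes most like the members; a few others were named after their values were seen. The members and lists were chosen with earlier results of these data known. Alternatives were DESeq2 1.42.0, other normalization, filters, covariates, blocks and resolution, and each library left out. The fits were tested on simulated data. Replicate numbers were not taken to pair samples. Values of some genes in these lists are not reported here.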

Additional observations from a re-analysis of the deposited data

Results flagged for a closer look

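Of 126 groups of 4 to 6 libraries, 9 held a library far from the others of its group, and chance alone gives about 1 in 20. In bulk at 4 months WT replicate 4 was high for B2m (139.9 CPM against 66.7 to 76.0 in the others), H2-D1 (82.8 against 9.72 to 35.9) and H2-K1 (66.3 against 18.9 to 26.2), and PS19 replicate 4 for B2m (77.2 against 45.6 to 53.7). At 9 months WT replicate 5 was low for H2-D1 (7.57 against 19.2 to 22.1) and PS19 replicate 5 high for Tap1 (21.2 against 8 to 8.91). In nuclei CLEAR_PS19 replicate 3 was high for Tapbp in astrocytes (17.5 against 5.81 to 6.30), CLEAR_PS19 replicate 4 low for H2-D1 in oligodendrocytes (15.1 against 44.5 to 49.5), and CLEAR replicate 2 had 0 for Nlrc5 in oligodendrocytes (others 1.66 to 1.81).

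The PS19 effect in bulk differed between the ages (9 minus 4 months, log2) for B2m by 2.26, Nlrc5 by 3.08, Tapbp by 0.68, H2-K1 by 2.35, Psmb9 by 1.53, Tap1 by 1.74, Psmb8 by 2.33 and Tap2 by 1.12.

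The tau effect differed between classes in 19 of 54 exact permutation tests. For H2-D1 the difference was -0.90 for OPC minus microglia, -1.75 for OPC minus oligodendrocytes, -0.67 for granule neurons minus microglia, -1.52 for granule neurons minus oligodendrocytes, -0.99 for inhibitory neurons minus microglia, -1.84 for inhibitory neurons minus oligodendrocytes, -0.85 for microglia minus oligodendrocytes, 0.98 for microglia minus other excitatory neurons and 1.83 for oligodendrocytes minus other excitatory neurons. For H2-K1 it was 0.74 for OPC minus astrocytes, -0.83 for OPC minus microglia, -1.04 for OPC minus oligodendrocytes, -1.31 for astrocytes minus granule neurons, -1.57 for astrocytes minus microglia, -1.78 for astrocytes minus oligodendrocytes, -0.99 for astrocytes minus other excitatory neurons and 0.78 for oligodendrocytes minus other excitatory neurons. For oligodendrocytes minus other excitatory neurons it was 0.71 for B2m and 0.47 for Tapbp. H2-K1 and Tapbp in oligodendrocytes entered these tests only through the libraries with tau, so their differences in that class support nothing by themselves.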

How the results depend on the processing

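No direction of a called member reversed under any alternative run. Counts of calls in the main fit are of 45 pairs of a member and a class, and of 72 pairs where edgeR had no filter on low counts. DESeq2 was run without that filter, and fits on other sets of libraries or nuclei applied it anew. The pairs tested there can differ from the 45. PS19 against WT had 14 calls, 22 with no filter and 2 without the 3 libraries that stand apart, and 8 to 16 with 1 library left out. CLEAR_PS19 against CLEAR had 2 calls, 6 with no filter, 0 with no sex covariate, 4 with the replicate block, 6 with the library set as a block, 1 without the 3 libraries, 5 with DESeq2, 1 at resolution 0.5, and 0 to 3 with 1 library left out. CLEAR against WT had 0 calls, 5 with the replicate block, and 0 to 0 with 1 library left out. CLEAR_PS19 against PS19 had 0 calls, 8 with no filter, 8 with the replicate block, 1 with DESeq2, and 0 to 2 with 1 library left out. The difference of the tau effect between backgrounds had 0 calls, 4 with no filter, and 0 to 1 with 1 library left out. Of 54 class differences 19 were called, 0 among libraries of males, which allow far fewer relabellings, and 16 to 20 with 1 library left out. In bulk, leaving out 1 library gave 7 to 9 calls of 9 at 9 months, 0 to 0 at 4 months, 8 to 9 for the difference between the ages, 8 to 9 for the ages in PS19 and 0 to 0 in WT. The shares of all genes called under the alternatives are not given here, so these counts show only how the calls of members depend on the processing. The cause of these changes was not tested. Deviations of log2 CPM from the group mean were correlated between libraries of different groups. Same-numbered libraries were at -0.294 to 0.318 in bulk (median 0.0216, against -0.00175 for other numbers). In nuclei they were at -0.402 to 0.609 (median 0.249, against -0.160 for other numbers). The median in nuclei was higher for same numbers, though not every such pair was positive. The labels do not say that the numbers pair samples, so the main fits took no pairs and the replicate block is given as an alternative. What same-numbered libraries share was not tested. Under the replicate block H2-D1 in bulk at 9 months was 1.75 (edgeR adjusted p = 0.0631) and between the ages in PS19 1.53 (0.074), and PS19 against WT had 19 calls in nuclei.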

Other observations

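Classes too small to test held the highest levels. Endothelial nuclei had H2-D1 at 236 ± 44.6 CPM in WT and 446 ± 175 in PS19 (SD, n = 3; 62 and 172 UMIs), H2-K1 at 153 ± 28.3 and 311 ± 145, and Nlrc5 at 3.84 ± 6.66 and 53.7 ± 35.3. Border macrophages of PS19 had H2-D1 at 183 ± 32.4 CPM and Nlrc5 at 160 ± 49.1. The T cell nuclei of PS19 had H2-K1 at 1041 ± 288 CPM, H2-D1 at 638 ± 252 and Nlrc5 at 741 ± 76.6, from few nuclei.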
